A study of Mus musculus with 6 samples.

Results

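Immediate early genes are transcribed within minutes of a stimulus from transcription factors that the cell already holds, with no need for new protein, and their mRNAs and proteins are short-lived. Growth factors, bacterial products and stress reach them through MAP kinases, which act on serum response factor with its ETS partners and on CREB, and many of their products are themselves transcription factors that carry the response to later genes. Tissue dissociation and cell sorting are known to induce these genes in freshly isolated cells, macrophages included. The 10 genes described here were taken from the deposited table by gene name out of 46078 rows: Fos, Fosb, Jun and Junb, which encode subunits of the AP-1 transcription factor, Maff, a small MAF protein, the zinc finger factors Egr1 and Egr2, Ier2 and Ier5, which encode nuclear regulators, and the kinase gene Plk3. Each name matched 1 row, and all 10 passed the filter on low counts.

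Alveolar macrophages live in the airspaces of the lung, where they clear surfactant and inhaled particles. They had been sorted from lungs of untreated mice, and their polyadenylated RNA was sequenced, 1 library per mouse. Controls were 3 Car4fl/fl mice, which carry loxP-flanked alleles of Car4, the gene of the membrane-anchored carbonic anhydrase 4. The other 3 mice were Car4fl/fl-CD11cCre, with the same floxed alleles and a Cre recombinase under CD11c, the integrin made from Itgax, so deletion is expected in any CD11c-expressing cell and not only in alveolar macrophages. The sources used here do not give age, sex, littermate status or the way the lungs were processed before sorting, and mice with the Cre and unmodified Car4 were not part of the series, so effects of the Cre itself cannot be told apart from deletion. Every library came from sorted cells, so the level of these transcripts in the lung and any part induced during isolation cannot be told apart.

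The libraries held 53824475 to 65443314 counts, and 3 counts corresponded to at most 0.0557 CPM, counts scaled to library size with TMM factors. As a check of the labels, Car4 reached at least 270.4 CPM in each control and at most 46.9 CPM in each Cre library. The alveolar macrophage markers Chil3 and Siglecf were abundant in all libraries, but their groups did not overlap. Chil3 was at 14423 to 17833.5 CPM in the controls and 18927 to 32961 CPM in the Cre libraries. Siglecf was at 663 to 752 CPM in the controls and 464 to 592 CPM in the Cre libraries. Of 12 such markers, Car4 included, 5 lay above control without overlap and 3 below, against 8.63 and 9.22% of all tested genes. Cre replicate 1 stood apart from the other Cre libraries: on the first principal component of all tested genes, with 54% of the variance, it was at -1.4, against 28.7 and 27.1 for Cre replicates 2 and 3 and -20.1 to -14.4 for the controls. In bulk RNA, fewer cells of a type and less RNA per cell cannot be told apart.

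The 10 genes were abundant. Together they took 0.527, 0.541 and 0.65% of the counts in the control libraries and 0.582, 0.434 and 0.507% in the Cre libraries. To compare genes with each other, CPM was divided by the exon length in kilobases. On that scale Fos led with 729 ± 140.5 CPM per kb (SD, n = 3 controls), which put it at rank 30 of 15094 tested genes with a known length. Junb followed with 562 ± 31.3 CPM per kb at rank 41. Ier2 was at 163 ± 8.07, Fosb at 158 ± 32.9, Ier5 at 128 ± 8.62 and Plk3 at 107 ± 1.21 CPM per kb in the controls. Egr2 was at 78.4 ± 0.496, Jun at 74.8 ± 3.32 and Maff at 58 ± 3.53 CPM per kb. Egr1 was the lowest at 28 ± 5.72 CPM per kb, at rank 1767. The control values of Ier2 and Fosb overlapped, while every other pair of neighbours in this order was separate in the controls. In the Cre libraries Ier2, Fosb and Ier5 overlapped in turn, and Jun, with 72.1 ± 8.69 CPM per kb, stood above Egr2, with 60.8 ± 9.43 CPM per kb, by means but with overlapping values.

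**Figure D1:**
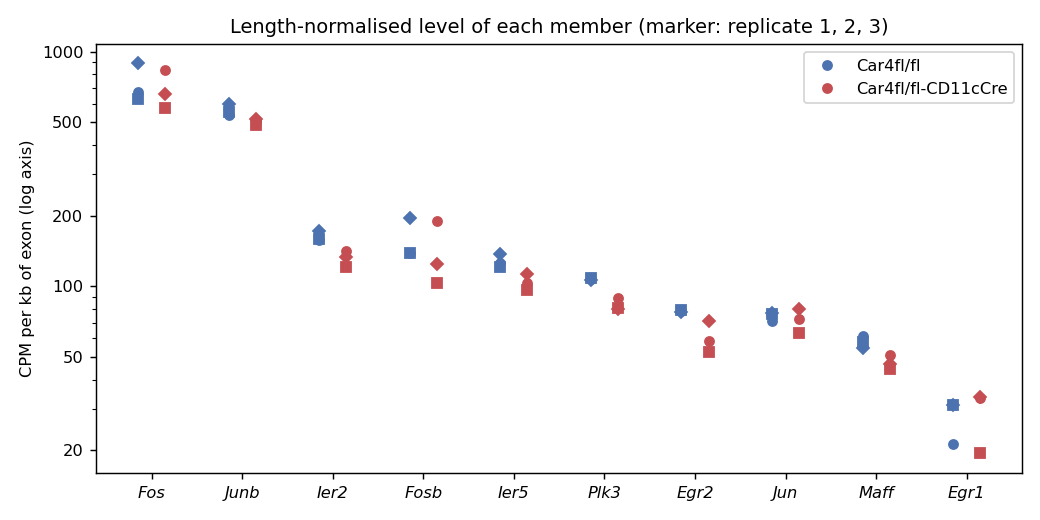
Length-normalised level of the 10 genes, in CPM per kb of exon on a log axis, with 1 marker per library and the genes in the order of their control means. Fos and Junb lie at 485 CPM per kb or more in every library, and Egr1 lies at 33.9 CPM per kb or less.

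In the comparison of the genotypes, the Cre libraries lay below the controls for a majority of these genes, by modest amounts. The 10 genes were chosen with earlier results of these data known. The shares of all tested genes given beside them are therefore a description and no test of the set. Of the 10 genes, 9 had a log2 fold change below 0, against 50.6% of the 15147 tested genes, and the median log2 fold change was -0.23, against -0.0019 over all tested genes. For 6 genes, Plk3, Ier2, Maff, Ier5, Egr2 and Junb, all 3 Cre values were below all 3 control values, against 9.22% of all tested genes, and for none were they all above, against 8.63%. None of the 10 passed edgeR's quasi-likelihood test with Benjamini-Hochberg adjustment, against 0.0066% of all tested genes higher and 0.0066% lower (0.0132% in all), or limma-voom. At an unadjusted p under 0.05 the same 6 genes were lower and none higher, against 6.28 and 6.54% of all tested genes. DESeq2 called 5 of the 6 lower, all but Junb, against 1.46% of the genes to which it gave an adjusted p, and none higher, against 2.32%. Without Cre replicate 1 the 6 genes had log2 fold changes between -0.42 and -0.17, and Plk3 alone of the 10 passed edgeR, as a lower gene, against 0.237% of all genes tested in that fit, and none was called higher, against 1.59%. edgeR without the filter on low counts called 4, all but Ier5 and Junb, against 0.665%, and none higher, against 1.23%.

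**Figure D2:**
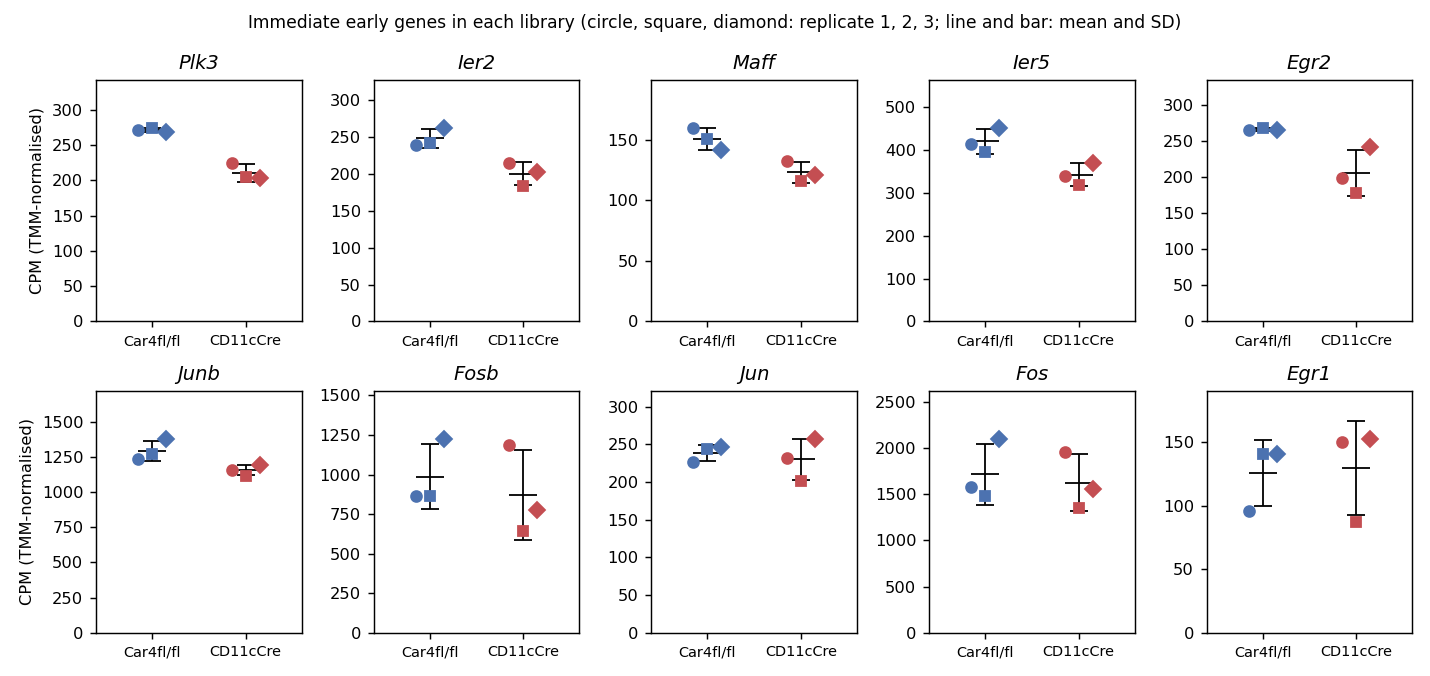
TMM-normalised CPM of each gene in each library on axes that start at 0, with circle, square and diamond for replicates 1, 2 and 3 and a line and bar for the mean and SD of 3 libraries. The groups are apart for Plk3, Ier2, Maff, Ier5, Egr2 and Junb and overlap for Fosb, Jun, Fos and Egr1.

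Plk3 encodes a polo-like kinase that is induced by growth factors and by DNA damage and other stress. On GRCm38 the gene (ENSMUSG00000028680) spans chromosome 4, 117128655 to 117133963, minus strand, with 14 exon blocks. Control values were 272, 274 and 268 CPM, and Cre values were 225, 204 and 203 CPM. Its control values were the closest together of the set after those of Egr2, and the lowest control was 1.19 times the highest Cre library. The Cre mean came to 77.7% of control, which edgeR fitted as a log2 fold change of -0.36 with an SE of 0.06 (adjusted p 0.146). The adjusted p ranged from 1.08e-05 in DESeq2 to 0.468 without control replicate 2. Without Cre replicate 1 the gene passed edgeR, with a log2 fold change of -0.42 and an adjusted p of 0.0178.

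Ier2 and Ier5 are intronless in the annotation, with 1 exon block each, and belong to one family of nuclear immediate early proteins; the product of Ier5 is known to act on heat shock factor 1. Ier2 (ENSMUSG00000053560, chromosome 8, 84661331 to 84662852, minus strand) was at 240, 243 and 262 CPM in the controls and 215, 184 and 202 CPM in the Cre libraries. Its Cre mean was 80.7% of control, and edgeR gave a log2 fold change of -0.31 with an SE of 0.07 (adjusted p 0.161). Ier5 (ENSMUSG00000056708, chromosome 1, 155096361 to 155099636, minus strand) was at 413, 395 and 451 CPM in the controls and 338, 317 and 370 CPM in the Cre libraries. All Cre values of Ier5 were below the lowest control, and edgeR gave a log2 fold change of -0.3 with an SE of 0.08 (adjusted p 0.185). In both genes Cre replicate 2 was the lowest library and control replicate 3 the highest.

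Maff encodes a small MAF protein, which lacks a transactivation domain and binds DNA as a dimer with itself or with CNC factors such as NRF2. Maff (ENSMUSG00000042622, chromosome 15, 79346621 to 79359076, plus strand) was at 160, 150 and 141 CPM in the controls and 133, 116 and 121 CPM in the Cre libraries. edgeR gave it a log2 fold change of -0.29 with an SE of 0.07 (adjusted p 0.173).

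Egr2, a zinc finger transcription factor, is part of the alveolar macrophage programme downstream of GM-CSF and TGF-beta signals. Egr2 (ENSMUSG00000037868, chromosome 10, 67535475 to 67542188, plus strand) was at 266, 268 and 265 CPM in the controls and 199.6, 178 and 241 CPM in the Cre libraries. The controls lay within 1.01-fold of each other and the Cre libraries within 1.35-fold. In edgeR its log2 fold change of -0.37, with an SE of 0.1, was the largest in size of the 10 genes (adjusted p 0.204). Egr1 (ENSMUSG00000038418, chromosome 18, 34859823 to 34864984, plus strand), which encodes a factor with a closely related DNA-binding domain, was the 1 gene with a positive log2 fold change. It was at 95.9, 141 and 140.2 CPM in the controls and 149.7, 87.1 and 152 CPM in the Cre libraries, so each group held 1 low library. In edgeR its log2 fold change was 0.05, with a 95% interval from -0.48 to 0.57 (adjusted p 0.961). It turned negative when control replicate 1 (-0.12), Cre replicate 1 (-0.078) or Cre replicate 3 (-0.084) was left out.

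The AP-1 subunits differed from each other. JUN proteins form dimers with each other or with FOS proteins, FOS proteins need a JUN partner, and JUNB is a weaker activator than JUN at many sites. Junb (ENSMUSG00000052837, chromosome 8, 84974484 to 84978718, minus strand) was at 1234, 1271 and 1373 CPM in the controls and 1155, 1117 and 1190 CPM in the Cre libraries. The groups were apart by only 1.04-fold between the nearest libraries, and edgeR gave a log2 fold change of -0.16 with an SE of 0.06 (adjusted p 0.351). Jun (ENSMUSG00000052684, chromosome 4, 95049034 to 95052222, minus strand) was at 227, 243 and 246 CPM in the controls and 232, 201 and 257 CPM in the Cre libraries, where the lowest and the highest library were both Cre. In edgeR its log2 fold change was -0.05, with a 95% interval from -0.26 to 0.15 (adjusted p 0.866), and it was 0.033 without Cre replicate 2.

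Fos and Fosb varied more between mice of 1 genotype than between the genotypes. Fos (ENSMUSG00000021250, chromosome 12, 85473890 to 85477273, plus strand) was at 1574, 1478 and 2092 CPM in the controls and 1960 (replicate 1), 1353 and 1553 CPM in the Cre libraries. Fosb (ENSMUSG00000003545, chromosome 7, 19302696 to 19310051, minus strand) was at 866, 867 and 1222 CPM in the controls and 1190, 646 and 776 CPM in the Cre libraries. Both genes were high in control replicate 3 and Cre replicate 1 and lowest in Cre replicate 2. The log2 fold change was -0.08 for Fos, with a 95% interval from -0.47 to 0.31, and -0.18 for Fosb, with an interval from -0.71 to 0.36 (edgeR adjusted p 0.899 and 0.817). Leaving out control replicate 3 moved these to 0.084 for Fos and 0.0024 for Fosb, and leaving out Cre replicate 2 moved Fos to 0.034. These intervals include changes in either direction, so a p above the threshold does not show that the genotypes had equal levels.

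**Figure D3:**
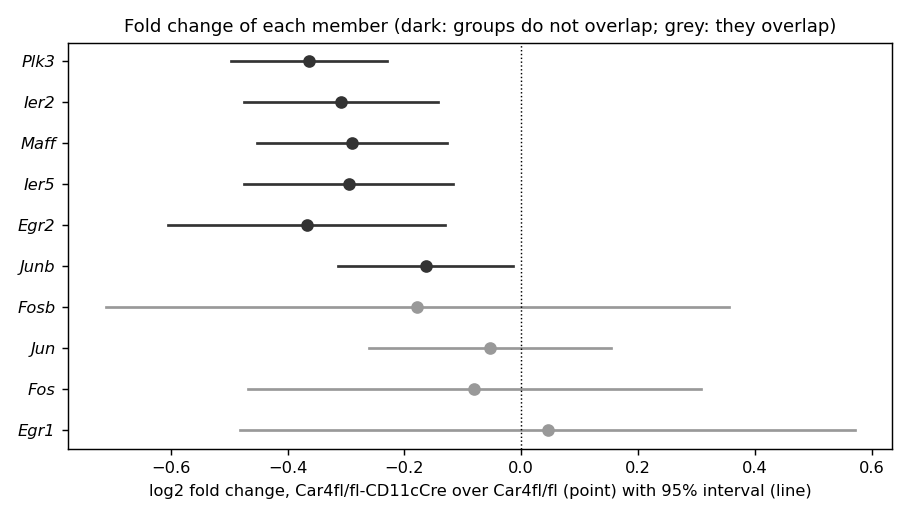
Log2 fold change of each gene, Car4fl/fl-CD11cCre over Car4fl/fl, with its 95% interval from edgeR, dark where the 2 groups of 3 libraries do not overlap and grey where they do. The intervals of Plk3, Ier2, Maff, Ier5, Egr2 and Junb lie below 0 before adjustment over all genes, and those of Fosb and Egr1 are the widest.

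Library by library, the Cre mice differed from each other. Cre replicate 2 was below the control mean for all 10 genes and was the lowest library for 9, with a median deviation of -0.41 on the log2 scale. Cre replicate 3 was below the control mean for 8 genes and Cre replicate 1 for 7, with medians of -0.16 and -0.17. In Cre replicate 1 the exceptions were Fos (0.21), Fosb (0.29) and Egr1 (0.27), and in Cre replicate 3 they were Jun (0.1) and Egr1 (0.3). Control replicate 3 was above the control mean for 7 genes and was the highest library for 5.

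The genes differed in their spread between mice of 1 group. Within groups the log2 SD was 0.392 for Egr1, 0.378 for Fosb and 0.268 for Fos, at the 99.3, 99.2 and 97.8 percentile among the 4191 genes whose mean reached 50 CPM. The median over those 4191 genes was 0.076. Plk3 and Junb, with log2 SDs of 0.061 and 0.065, were below that median, and Maff, Ier2, Ier5, Jun and Egr2 lay between 0.094 and 0.156. The 3 widest spreads belonged to genes whose groups overlapped, while Jun, whose groups also overlapped, had a smaller log2 SD (0.132) than Egr2 (0.156), whose groups were apart.

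**Figure D4:**
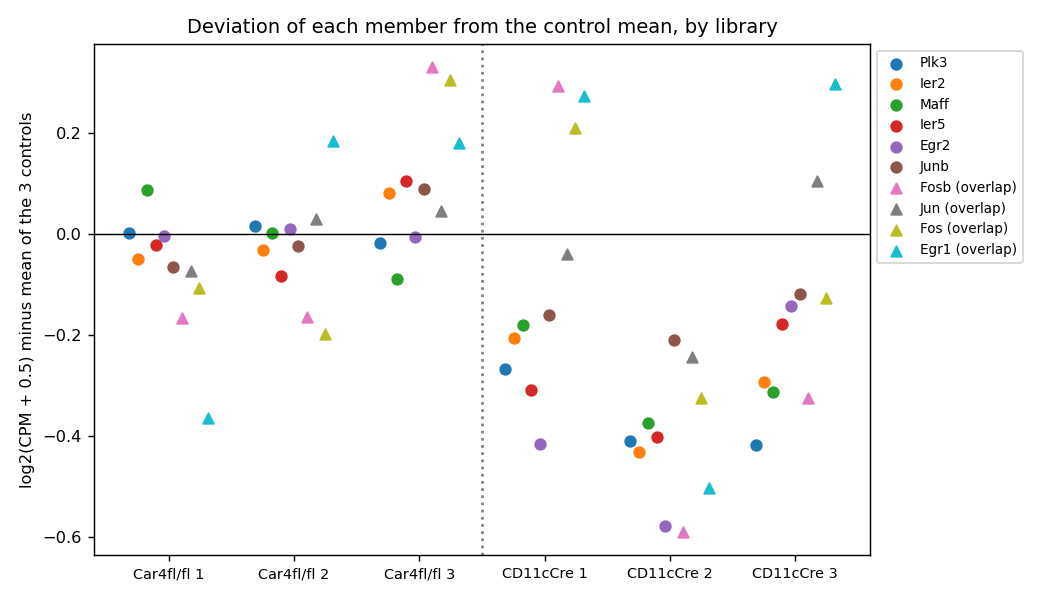
Deviation of each gene from the mean of the 3 controls on the log2(CPM + 0.5) scale, by library, with circles for the 6 genes whose groups do not overlap and triangles for the other 4. The circles lie below 0 in the Cre libraries because of how they were chosen, and the triangles of Fos and Fosb lie above 0 in control replicate 3 and Cre replicate 1.

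Markers of other cells differed between the groups in part, and within some lists not all in 1 direction. The summed CPM of 10 interstitial macrophage markers, all tested, was 112 to 126 in the controls and 123, 306 and 598 in Cre replicates 1, 2 and 3, of which Apoe, a lipid transport gene, gave 97.4, 250.3 and 505 CPM. Of these 10 markers 6 were above control and 4 below. C1qa was at 0.681, 1.01 and 0.722 CPM in the controls and 1.88, 12.4 and 18.2 CPM in the Cre libraries, while Cd163 was at 0.714, 1.3 and 0.651 CPM and then 0.423, 0.201 and 0.297 CPM. Folr2, Lyve1 and Ccr2 had means below control with overlapping groups. Airway epithelium markers (4 of 4 tested) summed to 58.9 to 163 CPM in the controls and 21.8 to 40.2 CPM in the Cre libraries, and this difference lay in Epcam, at 156, 129 and 55.1 CPM in the controls and 35.4, 16 and 22.6 CPM in the Cre libraries. The means of Scgb1a1 and Scgb3a2 were above control and that of Foxj1 below, each with overlapping groups. Which cells the Epcam RNA came from, macrophages or others, was not tested. B cell markers (6 of 6) summed to 24 to 45.5 CPM in the controls and 24.1, 48 and 146 CPM in the Cre libraries. Markers of alveolar type 2 cells (5 of 5) were at 60.1 to 73.5 CPM in the controls and at 118, 61.7 and 70.1 CPM, and endothelial markers (5 of 5) at 14.7 to 16.7 CPM and at 25.8, 13 and 14.2 CPM, both highest in Cre replicate 1. Neutrophil markers (6 of 8 tested, with Ly6g at 0 counts in all libraries) summed to 41.4 to 56.4 and 53.6 to 62.6 CPM, and T cell markers (7 of 7) to 1.9 to 2.71 and 2.48 to 5.98 CPM. Dendritic cell (6 of 6), fibroblast (5 of 5) and erythroid (5 of 5) sums overlapped between the groups, and none of 4 eosinophil markers passed the filter. The part of RNA from any of these cells, interstitial macrophages included, in the values of the 10 genes was not tested.

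The bases before the start of these genes are shown as a description. Any link between them and the levels of the genes was not tested. RefSeq windows on GRCm38.p6 were found for 8 of the 10 genes, all but Egr1 and Ier2, with 14 starts in all. The 250 bases before each start were searched on both strands. Sites of Egr1 and Ier2, and sites farther upstream of the other genes, were not searched for. The core of the cyclic AMP response element, the CREB site (TGACG), was found before at least 1 start of 6 genes, Egr2, Fos, Fosb, Junb, Maff and Plk3, in 9 of the 14 windows, against 17.8% of 32851 windows. Windows of neighbouring starts overlap, as 3 of the 5 of Egr2 do, so these are not independent. The 9 windows hold 11 distinct positions of the core, counted on both strands, and 2 of these overlap within 1 site of Maff. The full palindrome TGACGTCA, which contains the core on each strand, was found before 1 start of Maff, against 1.55% of windows. A CArG box, the site of serum response factor, was found before 4 of the 5 starts of Egr2, against 1.47% of windows, but at 2 distinct places, since 3 overlapping windows hold the same box. A TATA box (TATAAA) was found for Fos, against 12.4% of windows, an EGR site (GCGNGGGCG) for Fosb and Maff, against 4.7%, and an AP-1 site (TGANTCA) for none, against 6.75%. These matches are descriptions of the letters in the windows.

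Fos and Plk3 are given in full, as the most abundant gene and the gene of smallest p, from chr12:85473640-85473889 on the plus strand and chr4:117133964-117134213 on the minus strand. For Egr2 and Maff, 30 bases around the CArG box (chr10:67537793-67537822, plus strand) and around the full CREB palindrome (chr15:79347487-79347516, plus strand) are given. All run 5′ to 3′, and capitals mark TGACG on either strand, the CArG box, TGACGTCA and TATAAA.
Fos: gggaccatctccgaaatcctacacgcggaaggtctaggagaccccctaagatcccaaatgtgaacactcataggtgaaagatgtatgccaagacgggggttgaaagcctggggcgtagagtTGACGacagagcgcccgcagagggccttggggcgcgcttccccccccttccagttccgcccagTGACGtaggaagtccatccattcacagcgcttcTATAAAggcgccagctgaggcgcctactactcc
Plk3: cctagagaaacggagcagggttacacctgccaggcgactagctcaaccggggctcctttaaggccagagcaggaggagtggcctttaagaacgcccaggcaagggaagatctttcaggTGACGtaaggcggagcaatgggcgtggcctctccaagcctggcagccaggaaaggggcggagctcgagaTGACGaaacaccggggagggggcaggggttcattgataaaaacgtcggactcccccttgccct
Egr2: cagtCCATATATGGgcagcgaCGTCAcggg
Maff: gcggTGACGTCActgcatgactgggttttt
In Fos the core occurs at 129 to 125 and at 66 to 62 bases and the TATA box at 33 to 28 bases before the start. In Plk3 the core occurs at 132 to 128 and at 63 to 59 bases before the start. The core was found both in genes whose groups were apart, such as Plk3 and Egr2, and in Fos and Fosb, whose groups overlapped.

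Overlap with other genes touched 3 of the 10. Exons of Junb share 173 bases with Prdx2 on the opposite strand, Jun shares 232 with the antisense gene Junos, and Plk3 shares 84 with Tctex1d4. The sources used here do not give the strand setting of the counting, so reads in those bases cannot be told apart. The partners were small beside the genes: Tctex1d4 held 294 to 487 counts per library against 10942 to 16500 for Plk3, and Junos 109 to 360 against 12992 to 14642 for Jun. Prdx2 held 6003 to 8301 counts against 64067 to 78033 for Junb.

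Other immediate early genes lay on both sides of control. Counts in the lists that follow can be set against all tested genes, of which 6.28% were lower and 6.54% higher at an unadjusted p under 0.05, 1.46 and 2.32% were called lower and higher by DESeq2, and 9.22 and 8.63% lay below and above control without overlap. Of 44 listed genes 42 were tested and none was called by edgeR, and before adjustment 8 lower and 4 higher had a p under 0.05. DESeq2 called Bhlhe40 and Nr4a1 lower and Gem higher. For 8 of 42 the Cre values were all below the controls and for 2 all above, and the median log2 fold change was -0.04. The 8 were Bhlhe40, Rhob, Nr4a1, Pim1, Csrnp1, Trib1, Snai1 and Klf10, named after their values were seen. Nr4a1, an orphan nuclear receptor, was at 520.04, 610.1 and 657 CPM in the controls and 505, 412 and 483 CPM in the Cre libraries. Bhlhe40, a repressor of the basic helix-loop-helix family, was at 454, 457 and 475 CPM in the controls and 364, 367 and 424 CPM in the Cre libraries. Most abundant in this list, the survival factor gene Mcl1 and the kinase gene Sgk1, were at 1258 ± 24.2 against 1229 ± 103 CPM and 1118 ± 134 against 1112 ± 123 CPM, with overlapping groups.

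Partners of the AP-1 and MAF factors were not called in edgeR (19 of 19 tested, with a p under 0.05 before adjustment for 3 higher and 2 lower). DESeq2 called 2 of them higher and 0 lower. Fosl2, the most abundant, was at 807, 992 and 864 CPM in the controls and 729, 716 and 825 CPM in the Cre libraries, and edgeR gave a log2 fold change of -0.23 with an SE of 0.09 (adjusted p 0.363). The CNC factor gene Nfe2l1 was at 276 ± 12 against 274.5 ± 8.03 CPM. Of the co-repressor genes whose products bind EGR proteins, Nab1 was at 61.3 ± 4.4 CPM without and 61.1 ± 2.13 CPM with the Cre, and Nab2 at 31.5 ± 1.68 and 30.7 ± 3.49 CPM. In the EGR list 3 of 4 were tested and none was called by edgeR or DESeq2 or reached an unadjusted p under 0.05.

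Genes upstream of the response are the kinases, factors and coactivators that switch on immediate early promoters. Of 14 SRF and CREB regulators none was called by edgeR or DESeq2 (p under 0.05 before adjustment for 1 higher and 1 lower), and the median log2 fold change was -0.04. Of the coactivator genes, Ep300 was at 204 ± 23.1 against 214 ± 25 CPM, and Crebbp had 113 ± 13 against 120.2 ± 10.9 CPM. Of 26 tested MAP kinases and upstream kinases none was called by either tool, and a p under 0.05 before adjustment was reached by 2 lower and 0 higher. For 5 of the 26, Mapk3 among them, all Cre values were below the controls, and for 1 all were above. The shares of all tested genes were 9.22 and 8.63%. Mapk3, which encodes ERK1, was at 437, 402 and 399 CPM in the controls and 382, 350.4 and 351 CPM in the Cre libraries, and its groups did not overlap, and edgeR gave a log2 fold change of -0.19 with an SE of 0.06 (adjusted p 0.266). Rps6ka3, which encodes the ERK target RSK2, was at 320.5 ± 8.54 against 299 ± 23.2 CPM.

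Feedback inhibitors, many of which end MAP kinase signals or speed mRNA decay, lay on both sides of control. Of 18 tested, 11 were above and 7 below control, and none was called by edgeR or DESeq2 (p under 0.05 before adjustment for 3 higher and 1 lower). Dusp1, a MAP kinase phosphatase that is itself an immediate early gene, was at 532, 555.5 and 596 CPM in the controls and 599, 520.4 and 592 CPM in the Cre libraries. Zfp36l2, an mRNA decay factor, was at 944 ± 61 against 893 ± 71.5 CPM. The other polo-like kinase and IER genes (5 of 6 tested) were not called by either tool, and 2 higher had a p under 0.05 before adjustment. These were Ier3 at 35.5 ± 5.35 against 50.1 ± 14.9 CPM and Plk2 at 30.5 ± 4.73 against 41.2 ± 9.42 CPM.

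Lists of early response cytokines and of heat shock genes had the larger share of their members above control. The first holds cytokine and chemokine genes together with Ptgs2, which encodes cyclooxygenase 2, and Socs3, which encodes an inhibitor of cytokine signalling. Of its 13 genes 10 were above control, against 49.4% of all tested genes, and the median was 0.27 on the log2 scale. edgeR called none, and before adjustment 3 higher and 1 lower had a p under 0.05. DESeq2 called Ptgs2 and Socs3 higher, neither of them a cytokine gene, and Tnf lower. Cxcl2 was at 138 ± 45.1 against 167 ± 9.79 CPM and Ccl3 at 70.1 ± 10.8 against 75.6 ± 11.5 CPM. Tnf, an AP-1 and EGR target in macrophages, was at 64.7, 62.9 and 65.2 CPM in the controls and 50.1, 36.4 and 26.2 CPM in the Cre libraries, and edgeR gave a log2 fold change of -0.77 (adjusted p 0.185). Heat shock genes, which isolation stress is also known to induce, were above control for 14 of 16, against the same 49.4%, and their median was 0.13 on the log2 scale. edgeR called none of them, a p under 0.05 before adjustment was reached by 6 higher and 0 lower, against 6.54 and 6.28% of all tested genes, and DESeq2 called Hsph1 and Hspa8 higher, against 2.32%. Their summed CPM was 4204, 3914 and 4642 in the controls and 4716, 5074 and 4931 in the Cre libraries, so the groups did not overlap. The most abundant genes of the list weigh most in this sum. Hsp90ab1 was at 1620.4 ± 56.9 against 1734 ± 41.6 CPM and Hspa5 at 1172 ± 138 against 1426 ± 161 CPM. Hspa8 was at 862 ± 127 against 1076 ± 39.1 CPM. The part of isolation stress in these values was not tested.

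**Figure D5:**
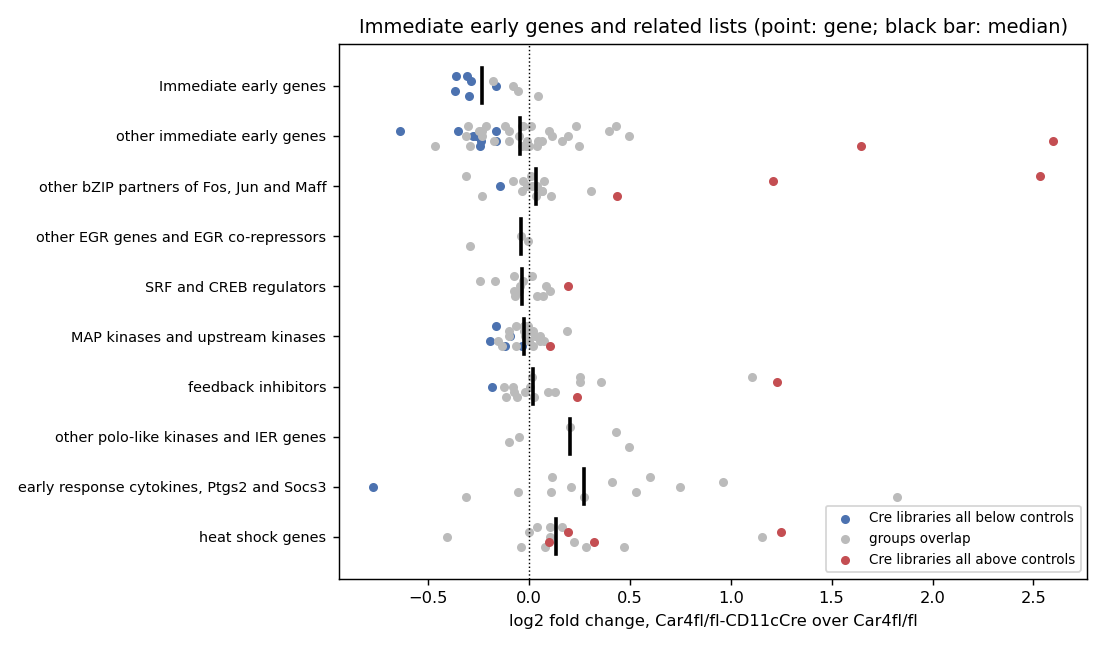
Log2 fold change, Car4fl/fl-CD11cCre over Car4fl/fl, of each tested gene of the 10 immediate early genes and of the related lists, coloured by whether the 2 groups of 3 libraries overlap, with a black bar at each list's median. The medians are -0.23 for the 10 genes, -0.04 for the other immediate early genes, 0.13 for heat shock genes and 0.27 for early response cytokines with Ptgs2 and Socs3.

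Each of the 10 genes was set beside the genes with the most similar profiles. Likeness was the root-mean-square difference between log2(CPM + 0.5) profiles over the 6 libraries, each centred on its mean. The candidates were 9162 genes whose mean reached 5 CPM. Predicted genes (Gm and Rik names), pseudogenes and secondary rows of a gene name were left out. Fos was nearest to Taf1d (0.06), Mcam (0.071) and Spry1 (0.083), and Fosb to Mcam (0.103), Spry1 (0.114) and Klf2 (0.126), so these 2 members shared Mcam and Spry1. Mcam, an adhesion molecule gene, was at 142, 129 and 168 CPM in the controls and 170.2, 106 and 127 CPM in the Cre libraries. Plk3 was nearest to Slc7a5 (0.025), Nlrx1 (0.041) and Acsf3 (0.042). Slc7a5, an amino acid transporter gene, was at 131, 132 and 127 CPM in the controls and 112, 98.7 and 101 CPM in the Cre libraries.

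Ier2 was nearest to Erf (0.024), Micu3 and Amigo2, Ier5 to Tgm1 (0.045), Smim5 and Adssl1, and Maff to Tlr2, Alox5 and Tmem141 (each 0.03). Egr2 was nearest to Emb (0.047), Sfxn5 and Impa2, and Junb to Cdk13 (0.023), Amd1 and Gtpbp1. Jun was nearest to Sirt1 (0.034), Mllt10 and Gab3. No member was among the 3 nearest genes of another. The pairs of members with the smallest differences were Maff and Plk3 (0.063), Ier2 and Ier5 (0.068) and Ier2 and Plk3 (0.07). The difference is not scaled to how much a gene varied over the libraries, which was more for Fosb than for Maff. Fos and Fosb differed by 0.127, yet Fos was at rank 4 among the genes nearest Fosb, and Fosb at rank 17 for Fos. Plk3 was at rank 66 for Maff, and Maff at rank 10 for Plk3.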

How the data were processed

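RNA of sorted alveolar macrophages from 3 Car4fl/fl and 3 Car4fl/fl-CD11cCre mice was isolated with a micro-scale column kit and captured by its poly(A) tail, per the labels' protocols. The table that the authors deposited holds raw counts of reads per gene. STAR 2.6.1, featureCounts 1.6.4 and the build GRCm38 appear in the submitters' processing notes among other tools, with no role or order. No annotation release or strand setting is stated there. Columns were matched to mice by library name.

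All rows went into one edgeR 4.0.16 fit (R 4.3.3): filterByExpr with a minimum count of 10, TMM, estimateDisp, glmQLFit and glmQLFTest, two-sided, Benjamini-Hochberg adjustment over 15147 genes and a threshold of 0.05. The SE is the absolute log2 fold change over the root of F. Intervals are 95%, per gene and unadjusted. Exon lengths and coordinates came from GENCODE M21 on GRCm38. DESeq2 1.42.0 and limma-voom (limma 3.58.1) were run on the same filtered genes. Other alternatives were other scalings, no or a stricter filter (5 CPM in 3 libraries), robust dispersions, the replicate number as a block and leaving out each library. Leaving out control replicate 3 and Cre replicate 1 together was chosen after seeing the data. The code was tested on simulated data.

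The 10 genes and the related lists were chosen with earlier results of these data known. Beside them and Car4, the rule named from each list the genes called or, with fewer than 2, its 2 most abundant, and the 3 genes of nearest profile. A few names given by this rule are left out here. Other names were chosen after their values were seen. Libraries held 53824475 to 65443314 counts, and each of the 10 genes at least 5622 per library; marker genes near 1 CPM held far fewer, so counting error weighs more in them. Python 3.11.15 and matplotlib 3.10.9 made the figures.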

Additional observations from a re-analysis of the deposited data

How the results depend on the processing

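Under all other scalings, tools, filters and left-out libraries tried, the log2 fold changes of Plk3, Ier2, Maff, Ier5, Egr2 and Junb stayed below 0. None of the 10 genes was called higher in any of them. The 0 called lower became 5 in DESeq2 and 4 without the low-count filter, and 0 to 1 when each library was left out. It became 1, Plk3, without control replicate 3 and Cre replicate 1 together, chosen after seeing the data. Over all tested genes edgeR called 1 higher and 1 lower. These became 344 and 217 in DESeq2, 340 and 183 without the filter, 269 and 133 without those 2 libraries, 8 and 2 with the replicate block, 1 and 0 with robust dispersions, and 1 to 249 and 0 to 52 when each library was left out. Leaving out each library moved the log2 fold change of Fos from -0.25 to 0.084, Fosb from -0.48 to 0.0024, Jun from -0.14 to 0.033 and Egr1 from -0.12 to 0.26. Against the sign with all libraries, Fos was at 0.084 without control replicate 3 and 0.034 without Cre replicate 2, Fosb at 0.0024 without control replicate 3, and Jun at 0.033 without Cre replicate 2. Egr1 was likewise at -0.12 without control replicate 1, -0.078 without Cre replicate 1 and -0.084 without Cre replicate 3. The cause was not tested. Libraries of the same replicate number did not deviate together (r of -0.0333, -0.187 and 0.0437 over genes, which are not independent), so the number was not taken as a pairing. Between control and Cre libraries of different number, r ran from -0.209 to 0.248, and no other matching of libraries was tested. The replicate block in edgeR left the called immediate early genes at 0 (smallest adjusted p 0.171). The number of mice, 3 a group, limits these comparisons, and for genes near 1 CPM depth does too.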

Other observations

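Some immediate early genes and a bZIP gene that were near silent in control macrophages went the other way from Plk3 and its companions, by amounts that differed between the Cre mice. They were picked after their values were seen. Hbegf, an EGF receptor ligand gene, was at 0.515, 0.532 and 0.598 CPM in the controls and 0.676, 1.5 and 7.86 CPM in the Cre libraries. Gem, a small GTPase gene, was at 0.598, 0.582 and 0.704 CPM and then 0.862, 1.24 and 3.83 CPM. Maf, which encodes a large MAF factor, was at 1.03, 1.08 and 1.34 against 1.76, 3.38 and 2.84 CPM. For all 3 genes the Cre values lay above the controls, and edgeR called none of them (adjusted p of 0.159 to 0.266). DESeq2 called Gem and Maf, with adjusted p of 0.036 and 0.00365, and not Hbegf (0.126).

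Among antisense partners, Junos held 168, 121 and 109 counts in the controls and 160, 360 and 360 counts in the Cre libraries, while Jun was near control. The inducible heat shock genes Hspa1a and Hspa1b were low in all libraries, at 1.05, 1.58 and 2.43 against 2.23, 2.43 and 6.61 CPM and at 2.11, 3.26 and 4.17 against 4.51, 5.62 and 12.6 CPM. Their copies are nearly identical, so the split of reads between them is uncertain. Klf2, which has a profile near that of Fosb, was at 25.6, 21.3 and 34.6 CPM in the controls and 36.5, 21 and 21.2 CPM in the Cre libraries.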
